A study of Macaca mulatta with 12 samples.

Results

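The cytosolic ribosomal protein genes were taken as every row of the deposited count table whose symbol begins with RPL or RPS and a digit, or with RPLP, leaving out the RPS6K kinases. This rule found 64 of 19708 gene rows. They comprised 28 large-subunit genes, 25 small-subunit genes (RPS2 and RPS2.1 as separate rows), 3 genes of the acidic stalk, and 8 rows counted apart. Counted apart were the paralogs RPL3L, RPL7L1, RPL22L1, RPL26L1, RPL39L, RPS17L and RPS27L, and RPS19BP1, which encodes a regulator of the deacetylase SIRT1. Levels of all 64 were read in single nuclei from frozen amygdala of rhesus macaques (Macaca mulatta). All 12 labelled samples form 1 group, for which the labels name no treatment or genotype. Titles give specimen numbers up to 3 and library numbers up to 4.

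The ribosome reads mRNA on its small subunit and joins amino acids on its large subunit, and its stalk recruits the translation factors that drive elongation. Ribosomal protein mRNAs are among the most abundant mRNAs of the cytoplasm. Most carry a 5′ terminal oligopyrimidine (TOP) tract, through which their translation follows nutrient and mTOR signalling. In preparations of nuclei they are also read as a gauge of cytoplasm that stays attached and of RNA set free when cells break.

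In all, 151526883 transcripts, each counted once through its unique molecular identifier (UMI), were spread over 26400 nuclei at 457 to 21684 per nucleus. Their barcodes carry 3 different suffixes. The resulting barcode sets hold 9201, 8900 and 8299 nuclei, with median depths between 5009 and 5116 UMIs. No label ties a set to an animal or library, so the pool is 1 sample and no difference below has a replicate error or a test. Across sets 68 barcodes recurred. After 1862 presumed doublets were left out, 24538 nuclei remained. Clusters were named as 10 classes from marker genes, with the ribosomal protein genes held out of clustering, and a name such as astrocyte means astrocyte-like in that sense. Each marker list had its highest summed level in the class named from it. The naming used these same lists, so this is no separate support for the names. Precursors of oligodendrocytes had 5524 CPM (UMIs per 1000000 UMIs) of their own 7 markers, but their 10 leading genes held BCAS1, a marker of committed precursors, and none of the 7. An excitatory cluster of 615 nuclei was led by ST18, a marker of oligodendrocytes, and also held the endothelial marker ERG among its leading genes, and the excitatory cluster highest in PROX1, a dentate granule cell marker in the hippocampus, held 5144 of the 10921 excitatory nuclei. All levels are CPM of summed counts, and all intervals are exact 95% intervals for counting error only.

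Ribosomal protein mRNA was scarce in these nuclei. The 64 genes together held 89436 of the UMIs of the nuclei kept, 0.0655% or 655 CPM (650.6 to 659). The barcode sets gave 663, 639 and 663 CPM. The median nucleus held 3 of these UMIs, and 89.4% of nuclei held at least 1. Over all genes of a role, the large subunit summed to 270.5 CPM, the small subunit to 287 CPM, the stalk to 49.8 CPM, and the 8 rows counted apart to 39.3 CPM. These sums leave out rows with only an Ensembl identifier, among them 1 paired with RPL5 at 49.6 CPM, so no order of the subunits can be read from them. UMIs were spread unevenly. RPL22, a large-subunit protein that also binds other RNAs, led with 45.9 CPM, followed by RPS26 of the small subunit at 33.9 CPM and RPL6 of the large subunit at 31.8 CPM. RPS21 and RPL29 stood at the other end, with 4 and 7 UMIs in the nuclei kept.

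Glial and vascular classes stood above neurons. Microglia, the resident macrophages of the brain, had 1327 CPM (1178 to 1489). Oligodendrocytes, which make myelin, had 1188 CPM (1113 to 1266). Mural cells, the contractile cells around vessels, had 1119 CPM and endothelial cells of the vessel wall 1118 CPM, with a mural over endothelial ratio of 1.00 (0.824 to 1.21). Below these came committed oligodendrocyte precursors at 1006 CPM (889 to 1135), oligodendrocyte precursors at 858 CPM (799 to 921), astrocytes at 851 CPM (833 to 868) and ependymal cells, which line the ventricles, at 839.8 CPM (795 to 887). Neurons were lowest, with 615 CPM (609.7 to 620) in excitatory and 634 CPM (624 to 644) in inhibitory neurons.

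Some neighbours in this order could not be told apart at this depth. The microglia over oligodendrocyte ratio was 1.12 (0.976 to 1.28), oligodendrocyte over mural 1.06 (0.905 to 1.25), ependymal over astrocyte 0.987 (0.931 to 1.05), and ependymal over precursor 0.978 (0.895 to 1.07). All 8 glial and vascular classes lay above both neuronal classes in each barcode set. Together these glial and vascular nuclei had 885 CPM, against 619 CPM in neurons, a ratio of 1.43 (1.40 to 1.46), at 1.45, 1.41 and 1.43 in the sets. Their median depth was 1757 UMIs, against 7090 UMIs in neurons. Over the 10 classes the log2 level and the log2 median depth had a Pearson r of -0.89, given as a description of classes that share the same libraries.

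**Figure D1:**
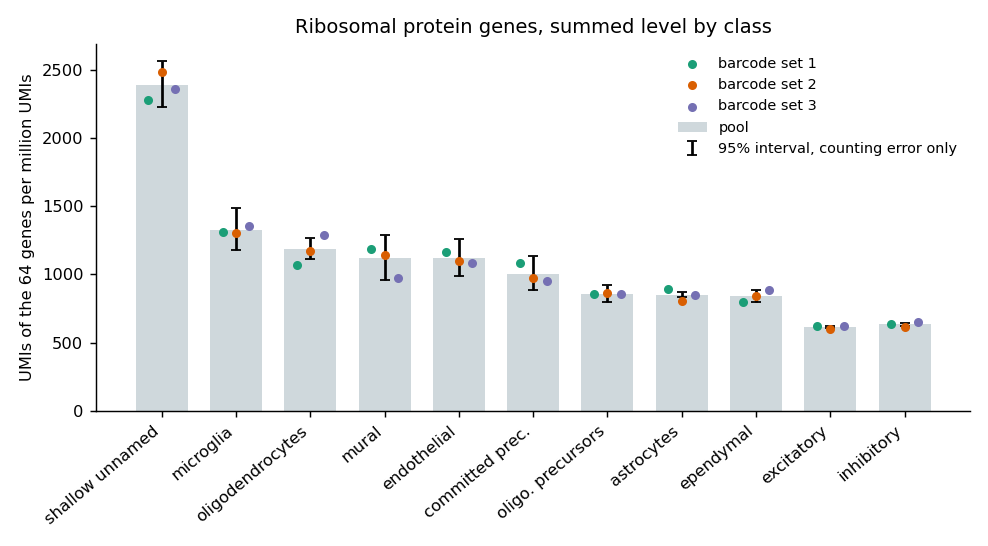
Summed level of the 64 ribosomal protein genes (y axis, UMIs per 1000000 UMIs) in the shallow unnamed cluster and in 10 classes named from markers; bars give the pool, whiskers the exact 95% interval for counting error, and points the 3 barcode sets. Points of the shallow cluster (2279 to 2488) stand above all others, and those of both neuronal classes (599 to 653) below all others.

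Over all nuclei kept, the level fell steadily with the depth of the nucleus. In the pool it was 2307 CPM in nuclei under 600 UMIs, 1025 CPM from 1000 to 1500 UMIs, 806 CPM from 2000 to 3000, 651 CPM from 6000 to 8000, and 514 CPM at 16000 UMIs or more. Each of the 12 depth bins lay below the bin before it. The makeup of the bins changed too: excitatory and inhibitory neurons made up 0% of nuclei under 600 UMIs and 99.7% at 16000 or more.

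A fall between quartile groups was also seen within several classes, but it was not steady over the depth bins. Inhibitory neurons had 630 CPM from 2000 to 3000 UMIs, 708 CPM from 3000 to 4000 and 632 CPM from 6000 to 8000. Excitatory neurons had 694 CPM from 2000 to 3000 UMIs and 755 CPM from 3000 to 4000. When excitatory neurons were cut into quartile groups by total UMIs, the levels from the shallowest to the deepest group were 719, 666, 617 and 554 CPM. The shallowest over the deepest group gave a ratio of 1.30 (1.26 to 1.33), and 1.34, 1.27 and 1.28 in the barcode sets. Clusters differed in level and in depth at once. The cluster highest in PROX1 had 703 CPM at a median of 5839 UMIs, and the next, led by NECTIN3, had 586 CPM at 11006 UMIs. Cluster and depth thus cannot be told apart in this gap. Quartile groups within a cluster also spanned less depth. Their medians ran from 3751 to 8073 UMIs in the PROX1 cluster, against 4555 to 13101 UMIs over all excitatory neurons. Without the cluster highest in PROX1 the ratio was 1.12 (1.09 to 1.16), and within the 5 excitatory clusters of at least 500 nuclei it ran from 1.09 to 1.18, with intervals above 1. Inhibitory neurons gave 1.15 (1.10 to 1.21) and their 4 clusters of at least 500 nuclei 1.08 to 1.19, of which 2 had intervals that reach below 1.

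Astrocytes gave 946, 894, 869.98 and 767 CPM from the shallowest to the deepest group, a ratio of 1.23 (1.16 to 1.31). Endothelial nuclei gave 2.16 (1.498 to 3.09) from 30 nuclei in each group, and precursors of oligodendrocytes 1.45 (1.18 to 1.79). Committed precursors gave 1.46 (1.01 to 2.09) and ependymal cells 1.25 (1.06 to 1.47). Oligodendrocytes gave 1.13 (0.930 to 1.37), an interval that spans 1. In microglia the ratio was 0.925 (0.625 to 1.34) and in mural cells 0.968 (0.592 to 1.54), intervals wide enough to hold the astrocyte value.

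**Figure D2:**
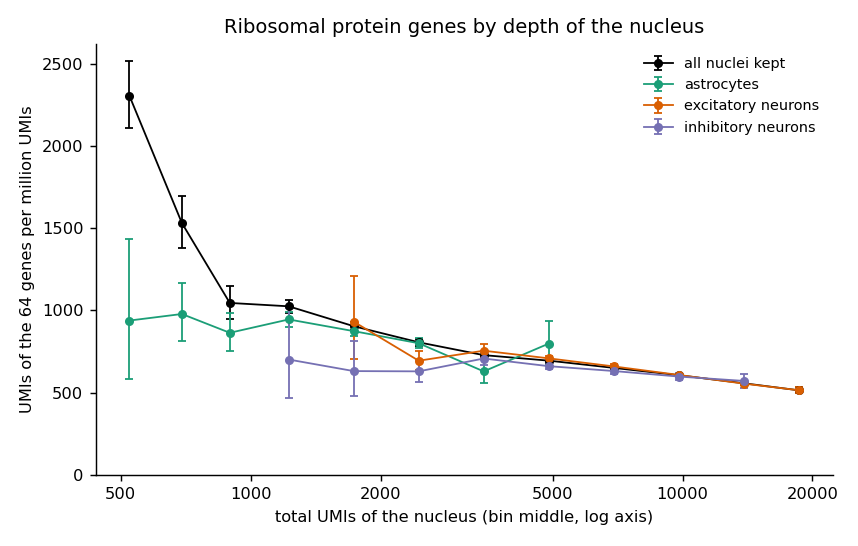
Summed level of the 64 genes (y axis, UMIs per 1000000 UMIs) against total UMIs of the nucleus (x axis, log scale, middle of each bin), with exact 95% intervals for counting error, in all nuclei kept and in the 3 largest classes; bins with under 20 nuclei are left out. The pool stands at 2307 in the shallowest bin and 514 in the deepest, while astrocytes under 2000 UMIs stay between 864 and 979.

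Classes were therefore also set side by side within bins of equal depth. From 2000 to 3000 UMIs astrocytes had 801 CPM and neurons 668 CPM, a ratio of 1.198 (1.11 to 1.29). From 3000 to 4000 UMIs astrocytes had 629 CPM and neurons 733 CPM, a ratio of 0.859 (0.756 to 0.972), from 131 astrocytes. From 4000 to 6000 UMIs astrocytes, 40 nuclei, had 798 CPM and neurons 689.7 CPM, a ratio of 1.16 (0.979 to 1.36). From 1000 to 1500 and from 1500 to 2000 UMIs, with 34 and 85 neurons, the ratios were 1.22 (0.876 to 1.76) and 1.17 (0.970 to 1.42). Of the 5 bins compared, 1 thus had an interval above 1, 1 had an interval below 1, and the others spanned 1. For all glial and vascular nuclei over neurons the ratio was 1.26 (1.17 to 1.35) from 2000 to 3000 UMIs, 0.95 (0.868 to 1.04) from 3000 to 4000, and 1.22 (1.09 to 1.37) from 4000 to 6000 UMIs.

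Microglia stood above astrocytes in each of the 4 bins compared, and oligodendrocytes, with RPS26 included, in 3 of 4. From 1000 to 1500 UMIs microglia had 1311 CPM and astrocytes 946 CPM, a ratio of 1.39 (1.15 to 1.66), higher in all 3 barcode sets. From 1500 to 2000 UMIs oligodendrocytes had 1245 CPM and astrocytes 874 CPM, a ratio of 1.42 (1.28 to 1.58), at 1.05, 1.54 and 1.67 in the sets. From 800 to 1000 UMIs, with 21 oligodendrocytes, the ratio was 0.863 (0.464 to 1.48). Without RPS26 the oligodendrocyte over astrocyte ratio was 0.773 from 800 to 1000 UMIs and 0.821 from 1000 to 1500. It was 1.048 from 1500 to 2000 UMIs and 0.979 from 2000 to 3000, so no common direction was left. The microglia over astrocyte ratio without RPS26 was 1.406, 1.502, 1.395 and 1.448 from the shallowest to the deepest bin. Ependymal cells stayed close to astrocytes, with ratios from 0.918 to 1.08 and intervals that all span 1.

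Excitatory and inhibitory neurons differed little. Their summed levels of 615 and 634 CPM gave a ratio of 0.970 (0.953 to 0.987), and 0.987, 0.973 and 0.949 in the barcode sets, but excitatory neurons were deeper, with medians of 7949 UMIs and 5636 UMIs in inhibitory neurons. At matched depth the direction mostly turned: from 4000 to 6000 UMIs the levels were 709 CPM in excitatory and 661 CPM in inhibitory neurons, a ratio of 1.07 (1.03 to 1.11). The ratio was above 1 in each bin from 1500 to 12000 UMIs, but some of these intervals reached below 1. These were 1.10 (0.964 to 1.26) from 2000 to 3000, 1.07 (0.989 to 1.15) from 3000 to 4000 and 1.02 (0.982 to 1.05) from 8000 to 12000 UMIs. From 12000 to 16000 UMIs the ratio was 0.971 (0.8997 to 1.05). Thinned to 1000 UMIs per nucleus it was 1.02 (0.980 to 1.07), and without the cluster highest in PROX1 it was 0.901 (0.885 to 0.919).

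Gene by gene, 60 of the 64 genes were measured between excitatory and inhibitory neurons, which means at least 50 UMIs on a side and at least 10 expected on each. None passed 2-fold in either direction, where 8.42% of the genes held out of clustering were higher by that much and 8.47% lower. The median log2 ratio was -0.07, and -0.10 over the held-out genes. RPL19, RPL10A, RPL12, RPL22 and RPL23, all of the large subunit, had the highest log2 ratios, from 0.56 down to 0.37. RPL22 had 49.5 CPM in excitatory and 35.8 CPM in inhibitory neurons, at 50.4, 48.2 and 49.8 against 33.6, 36.5 and 37.5 CPM in the sets, which do not overlap.

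The lowest ratios were those of RPL37A (log2 -0.90), RPS3 (-0.64), RPS24 (-0.52), RPL10 (-0.39) and RPL15 (-0.34). RPS3, a small-subunit protein at the mRNA entry site that also takes part in DNA repair, had 9.02 CPM in excitatory and 14.0 CPM in inhibitory neurons. Its sets ran from 8.63 to 9.37 CPM in excitatory and from 12.9 to 15.03 CPM in inhibitory neurons and did not overlap. RPL37A is split between this row and a row with a macaque Ensembl identifier that held most of its UMIs, and RPS24 also has a second row of that kind, so the values of both are uncertain here.

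RPS3 and RPL10 also stood high in shallow nuclei. Between the shallowest and the deepest quartile group of excitatory neurons 59 genes were measured. These groups also differ in their mix of clusters: the summed ratio was 1.30, and 1.09 within the cluster highest in PROX1. Single genes are not given within clusters here, so depth and cluster cannot be told apart for them. RPS3 was the 1 gene at least 2-fold higher, at 2.13-fold (log2 1.09, 0.80 to 1.38), and none was 2-fold lower; the held-out genes had 5.45% higher and 5.63% lower. RPS2, RPS15, RPL12 and RPL10 followed, at log2 0.91, 0.90, 0.86 and 0.86. The median was 0.44, with 49 genes above 0, against 0.12 over held-out genes. At the low end stood RPS27L, RPS19BP1, RPL28, RPS28 and the Y-linked RPS4Y2, at log2 -0.63, -0.53, -0.38, -0.31 and -0.17. In astrocytes 23 genes were measured between the same groups and none passed 2-fold, against 0.0934% and 0.187% of held-out genes higher and lower. RPS3 and RPLP0 had the highest log2 ratios there, 0.82 and 0.79. For RPS3 the barcode sets gave 1.33, -1.36 and 1.25, so 1 set went the other way, and for RPLP0 0.94, 0.66 and 0.65. RPS15, RPL6 and RPS4Y1 had the lowest ratios, -0.50, -0.48 and -0.46.

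A cluster of 516 nuclei with a median of 548.5 UMIs had the highest level of all groups. It had 2390 CPM (2226 to 2563), at 2279, 2488 and 2365 CPM in the barcode sets, which is 3.86 times the neuronal level (3.60 to 4.14). This cluster stayed unnamed. Its 122, 189 and 205 nuclei in the sets, summed, carried markers of several classes. The 9 excitatory markers summed to 1541 CPM (2014 in excitatory neurons), the 10 astrocyte markers to 3120 CPM (14310 in astrocytes), and the 9 oligodendrocyte markers to 1120 CPM (15569 in oligodendrocytes and 222 in excitatory neurons). None of these 28 markers was at 0. The 10 microglial markers summed to 186 CPM, with 1 at 0, and both red blood cell markers were at 0. The part of mixed or free RNA in the ribosomal protein level of this cluster was not tested.

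At matched depth this cluster also stood above astrocytes. From 600 to 800 UMIs the shallow cluster had 2607 CPM and astrocytes of that depth 979 CPM, a ratio of 2.66 (2.11 to 3.37), and from 1000 to 1500 UMIs the levels were 1644 and 946 CPM, a ratio of 1.74 (1.34 to 2.22). These nuclei made up 80.7% of all nuclei under 600 UMIs and 30.2% from 600 to 800. Astrocytes under 600 UMIs, 41 nuclei, had 939 CPM (581 to 1435).

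Single genes differed widely in the shallow cluster. To keep the choice of genes free of the shallow side, the 23 genes with at least 10 CPM in excitatory neurons were read, and the other 41 are not counted here. In the shallow cluster 15 of the 23 passed 2-fold upwards and none downwards, where 18.8% of held-out genes at the same excitatory level were higher and 5.81% lower. The median log2 ratio was 1.66, against 0.30 over those held-out genes.

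RPS2, at the mRNA entry channel of the small subunit, had 204.5 CPM (67 UMIs) in the shallow cluster and 17.0 CPM in excitatory neurons, 12.05-fold. Its sets ran from 155 to 239 CPM in the shallow cluster and from 16.8 to 17.3 CPM in excitatory neurons. A second row, RPS2.1, had only 9.16 CPM in the shallow cluster and 6.81 CPM in excitatory neurons. A row paired with RPS2 by its Ensembl identifier had 0 UMIs in the shallow cluster. How reads were divided between these rows was not tested, so the fold of RPS2 holds for its own row only. RPL10 and RPL15, late-joining and core proteins of the large subunit, were 10.2-fold and 10.1-fold higher, RPS15 8.85-fold and RPL4 8.12-fold. RPLP0, the base of the stalk, had 140.4 CPM and 21.3 CPM, 6.59-fold. RPS9 had 97.7 CPM in the shallow cluster and 21.3 CPM in excitatory neurons, 4.59-fold.

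Other members had much smaller ratios. RPL6 had 36.6 CPM in the shallow cluster and 33.4 CPM in excitatory neurons, log2 0.13 (-0.82 to 0.94). RPLP2, a tip protein of the stalk, had 30.5 and 25.6 CPM, log2 0.26 (-0.81 to 1.14). RPL7A had a log2 ratio of 0.06 (-1.82 to 1.42) and RPL7L1 of 0.36 (-1.09 to 1.49), intervals that hold changes beyond 2-fold in either direction. For RPS24 the ratio was 0.22 (-1.41 to 1.45), but a second row paired with RPS24 by its Ensembl identifier had 51.9 CPM (17 UMIs) in the shallow cluster and 3.89 CPM in excitatory neurons, so the value of RPS24 is uncertain. RPL22, the most abundant member, had 79.4 and 49.5 CPM, 1.60-fold (log2 0.68, 0.07 to 1.24), higher in all 3 sets. Within the stalk, RPLP0 and RPLP2 thus differed in their ratio, although both proteins sit in 1 complex. In the shallow cluster RPLP2 rests on 10 UMIs and RPL6 on 12, yet the intervals of both end below those of RPS2, RPL10 and RPL15.

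**Figure D3:**
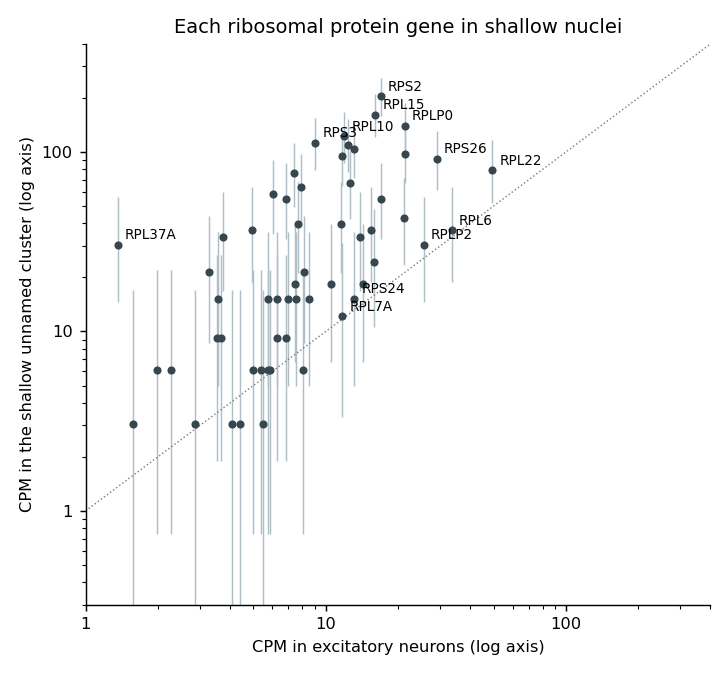
Level of each ribosomal protein gene in the shallow unnamed cluster (y axis, CPM, log scale, with the exact 95% Poisson interval) against its level in excitatory neurons (x axis, CPM, log scale); the dotted line marks equal levels, and 57 genes are drawn, since 7 had no UMI in the shallow cluster. RPS2 and RPL15 lie far above the line, at 204.5 and 162 CPM, while RPL6 and RPLP2 lie close to it.

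Other gene lists were read in the same bins of depth. The 22 other abundant cytoplasmic mRNAs, among them the lipid carriers APOE and CLU, summed to 7625 CPM under 600 UMIs and to 774 CPM at 16000 UMIs or more. The 21 other TOP mRNAs, led by EIF3H, EIF4B and EEF1A1 of the translation machinery, summed to 1277 and 469.97 CPM in these bins. The cytoplasmic list also differed by class, with 3799 CPM in astrocytes and 1003 CPM in excitatory neurons. The 58 genes of the mitochondrial ribosome, led by MRPS28, MRPS17 and MRPL39, had 1836 and 944 CPM, and the 64 respiratory chain and assembly genes, led by NDUFAF2, UQCRC2 and NDUFS4, had 2988 and 1530 CPM. The 27 ribosome biogenesis factors, led by NOP14, NOP58 and WDR43, which act in the nucleolus, had 829.6 and 629 CPM. Each of these lists was thus higher in the shallower bin, as the ribosomal proteins were. Excitatory and inhibitory neurons made up 0% of nuclei in the shallower bin and 99.7% in the deeper, so depth and class cannot be told apart here.

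The lists were also read within excitatory neurons, where the quartile groups by depth also differ in their mix of clusters. Between the shallowest and the deepest quartile group of excitatory neurons, 7 of 22 cytoplasmic mRNAs were at least 2-fold higher (median log2 0.68), where 5.45% of held-out genes were (median 0.12). In the same comparison 0 of 20 measured TOP genes (median 0.20), 0 of 56 respiratory genes (0.07), 0 of 26 biogenesis factors (0.08) and 0 of 56 mitoribosomal genes (0.14) were higher, and 2 mitoribosomal genes were 2-fold lower. At that background, counts of 0 among 20 or 26 genes set no list apart. In the shallow cluster over excitatory neurons all 18 cytoplasmic genes at 10 CPM or more were at least 2-fold higher, 4 of 13 TOP genes, 17 of 43 respiratory genes, 3 of 24 mitoribosomal genes and 2 of 18 biogenesis factors, where 18.8% of held-out genes were. EEF1A1, the elongation factor that delivers tRNA, had 305 CPM in the shallow cluster and 52.6 CPM in excitatory neurons, whereas EIF4B had 64.1 CPM and 65.1 CPM. Neuronal transcripts such as RBFOX1 had 4921 CPM in the shallow cluster, 14251 CPM in excitatory neurons and 1716 CPM in astrocytes.

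**Figure D4:**
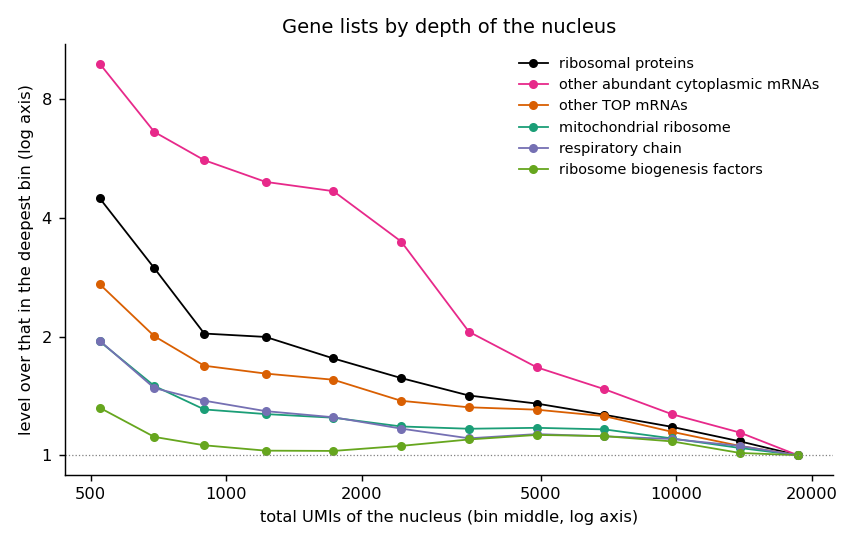
Summed level of 6 gene lists in bins of total UMIs (x axis, log scale) over the list's own level in the deepest bin, 16000 UMIs or more (y axis, log scale), over all nuclei kept. Cytoplasmic mRNAs and ribosomal proteins rise farthest towards shallow nuclei (7625 over 774 CPM and 2307 over 514 CPM), and ribosome biogenesis factors stay nearest to 1. Excitatory and inhibitory neurons make up 0% of nuclei in the shallowest bin and 99.7% in the deepest.

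Between the 10 classes, 61 of the 64 genes were measured in at least 1 comparison of a class with the mean level of the other classes, and 29 of them were at least 2-fold higher or lower somewhere. Among held-out genes this share was 65.1%. In excitatory neurons 15 of 60 measured genes were 2-fold lower (background 23.6%), and 1, RPS28, was higher (background 10.1%). In inhibitory neurons 14 of 61 were lower (background 21.2%) and 1 higher (8.77%). The mean over classes gives small classes the weight of large ones, and 120 endothelial or 119 mural nuclei hold few UMIs of any 1 gene.

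RPS26, a small-subunit protein near the mRNA exit channel, had 384 CPM (342 to 429) in oligodendrocytes, 286 CPM (225 to 358) in committed precursors and 123 CPM (101 to 148) in precursors, against 29.2 to 41.3 CPM in microglia, mural and endothelial nuclei, 25.1 CPM in ependymal cells, 28.5 CPM in astrocytes, 29.0 CPM in excitatory and 30.3 CPM in inhibitory neurons. The sets gave 367, 321 and 448 CPM in oligodendrocytes, 330, 249 and 277 CPM in committed precursors, and 106, 130 and 138 CPM in precursors. No set of a named class outside the lineage exceeded 59.4 CPM, so the lineage and the other classes did not overlap. Unnamed clusters with high doublet scores that were led by MBP or BCAS1 had 198 and 91.0 CPM.

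At an equal depth of 1000 UMIs per nucleus, 32.2% of oligodendrocytes (27.7 to 36.9) held a UMI of RPS26, against 23.7% of committed precursors (15.5 to 33.6), 12.1% of precursors (9.0004 to 15.8), 2.92% of astrocytes and 3.07% of excitatory neurons. Without thinning the shares were 44.4% in oligodendrocytes, at a median of 1696.5 UMIs, and 21.5% in excitatory neurons, at 7949 UMIs. Every cell makes ribosomes, so no class serves as a blank for this gene. Thinning kept 413 of 448 oligodendrocytes and all 10921 excitatory neurons.

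Between oligodendrocytes and their precursors the summed level was 1188 and 858 CPM, a ratio of 1.38 (1.26 to 1.52). Without RPS26 it was 804 and 735 CPM, a ratio of 1.09 (0.980 to 1.22). RPS26 made up 32.3% of all ribosomal protein UMIs in oligodendrocytes, 14.3% in precursors and 4.72% in excitatory neurons. It was the only member measured between these classes, at log2 1.64, where 14.6% of held-out genes were at least 2-fold higher and 16.4% lower. Against the mean of the other classes, RPS26 was 5.49-fold higher in oligodendrocytes and RPLP2 2-fold lower (log2 -1.08), as the 2 called of 30 measured genes (background 7.28% higher and 22% lower). The RPLP2 call was lost with presumed doublets kept, with clustering on all genes but the members and lists, and without barcode set 1 or 2, each of which left 0 genes lower. In committed precursors RPS26 was 3.54-fold higher, the 1 called of 6 measured genes (background 7.37% higher and 23.7% lower).

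In the RefSeq assembly T2T-MMU8v2.0, used for gene order only, RPS26 lies between IKZF4 and ERBB3. IKZF4, a zinc-finger factor, had 41.4 CPM (33 UMIs) in oligodendrocytes, 33.0 CPM in precursors, 23.9 CPM in excitatory and 41.3 CPM in inhibitory neurons. ERBB3, a receptor of the oligodendrocyte lineage, was not analysed here. The part of reads from neighbouring or overlapping transcripts in the RPS26 count was not tested. RPS26 also has retroposed copies in primates, and how the counting placed their reads is not given in the sources used here.

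**Figure D5:**
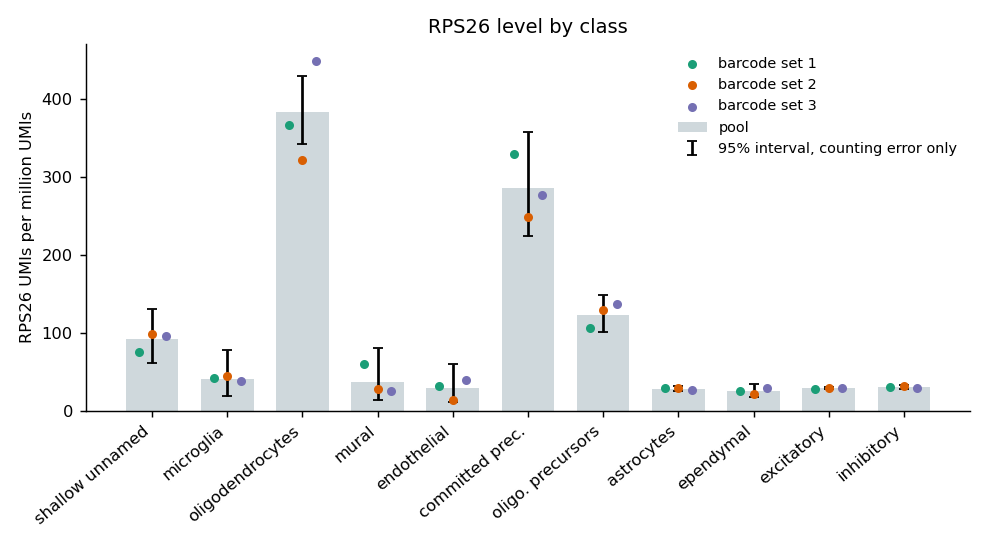
Level of RPS26 (y axis, UMIs per 1000000 UMIs) in the shallow unnamed cluster and in 10 classes; bars give the pool, whiskers the exact 95% Poisson interval and points the 3 barcode sets. Oligodendrocytes (384), committed precursors (286) and precursors (123) stand above all other named classes.

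With RPS26 included, the oligodendrocyte over precursor ratio within depth bins was 1.22 (0.885 to 1.70) from 1000 to 1500 UMIs, 1.35 (1.12 to 1.63) from 1500 to 2000 and 1.29 (1.10 to 1.501) from 2000 to 3000. Without RPS26 this ratio was 0.911, 1.07 and 0.989 in these bins, so no common direction was left. The microglial excess did not rest on RPS26: without it the microglia over neuron ratio was 2.18, and 2.14 with it. For oligodendrocytes over neurons the ratio was 1.36 without RPS26 and 1.92 with it. These ratios over neurons were not matched for depth.

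In microglia 3 of 12 measured genes were 2-fold higher, near the background of 18%, from few UMIs each. RPL4, which lines the peptide exit tunnel, had 73.5 CPM from 16 UMIs in microglia, at 3.38-fold the mean of the other classes. RPS16 was 2.95-fold and RPL32 2.04-fold higher. RPS26 was 2-fold lower there (background 17.1%). The count of 3 fell to 1 when thinned and without barcode set 3. Endothelial nuclei had RPL10 at 2.41-fold and RPS3 at 2.28-fold (2 of 7 measured, background 16.1%; 1 lower, RPS26, background 19.8%). At Leiden resolution 1.0 none was higher in endothelial nuclei, whose summed level was then 975 CPM, and without barcode set 1 there was 1. Mural nuclei had RPS15 at 2.69-fold and RPLP0 at 2.28-fold (2 of 3 measured, background 13.4%; 1 lower, RPS26, background 17.6%). None was higher in mural nuclei when thinned or without barcode set 1, and 1 without set 2. The low RPS26 values against the mean follow from the oligodendrocyte lineage being part of that mean.

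Astrocytes and ependymal cells were closer to the average. In astrocytes RPL23A, a large-subunit protein near the exit tunnel, was the 1 gene of 60 that was 2-fold higher (background 8.49%), with 8.36 CPM, against 3.05 CPM in excitatory and 2.90 CPM in inhibitory neurons. RPS26 and RPLP1 were 2-fold lower (background 16.8%), and 4 genes were without barcode set 1. In ependymal cells 2 of 45 measured genes, RPL39L among them, were higher (background 12.7%) and 6 lower (18.1%). In precursors 3 of 30 measured genes, RPL8, RPL23 and RPL7A, were lower (background 16.7%) and none higher (5.06%). RPLP0 in mural nuclei, RPLP1 in astrocytes, RPL18 in ependymal cells, RPL23 in precursors, and RPL23 and RPS4X in inhibitory neurons kept their direction in 2 of 3 barcode sets. In precursors no gene was lower when thinned or without barcode set 1, and 1 without set 2 or set 3 or with clustering on all genes but the members and lists. In ependymal cells 2 genes were lower when thinned and 3 without set 1 or set 2, and 1 was higher when thinned or without set 2. The RPL23A call in astrocytes and the RPS28 call in excitatory neurons were lost when thinned, which left 0 genes higher in each, and without set 2 there were 4 higher in excitatory and 3 in inhibitory neurons.

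Of the paralogs, RPL39L and RPS27L passed 2-fold in at least 1 class. RPL39L, a paralog of RPL39 best known from the testis of mice, had 10.96 CPM (17 UMIs, 6.38 to 17.5) in ependymal cells. It had 1.60 CPM in astrocytes, 0.52 CPM in excitatory and 0.32 CPM in inhibitory neurons. Its sets gave 14.8, 10.5 and 6.80 CPM in ependymal cells and at most 3.33 CPM in astrocytes, which do not overlap. Its neighbours by gene order, RTP1 and ST6GAL1, had 18.0 and 202 CPM in ependymal cells, against 2.33 and 86.3 CPM in excitatory neurons. Neither had its highest level in ependymal cells: precursors of oligodendrocytes had 20.9 CPM of RTP1 and 676 CPM of ST6GAL1.

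RPS27L, a paralog of RPS27 induced by p53 in human cells, had 22.96 CPM in microglia, 22.9 CPM in committed precursors, 16.5 CPM in precursors and 6.48 CPM in astrocytes, against 2.28 CPM in excitatory and 2.58 CPM in inhibitory neurons. The microglial value rests on 5 UMIs that all lay in 1 barcode set. The neuronal level was 0.172 of the mean of the other classes in excitatory and 0.196 in inhibitory neurons. RPL7L1, which acts in ribosome assembly, was the most abundant paralog at 14.7 CPM, with 14.2 CPM in excitatory and 16.7 CPM in inhibitory neurons. RPL26L1 had 10.4 CPM, RPS19BP1 8.54 CPM, RPL22L1 5.59 CPM and RPS17L 4.58 CPM over all nuclei. RPL3L, known from striated muscle, had 23 UMIs in the nuclei kept.

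The stalk genes did not move together. RPLP0 had 79.9 CPM in mural cells and 64.3 CPM in microglia, against 21.3 CPM in excitatory and 23.7 CPM in inhibitory neurons. RPLP2 had 7.53 CPM in oligodendrocytes, 6.45 CPM in ependymal cells and no UMI in mural nuclei, where 3 UMIs would be 18.4 CPM, against 25.6 CPM in excitatory and 20.2 CPM in inhibitory neurons. RPLP1 was low everywhere, at 2.74 CPM over all nuclei. Among other abundant genes, RPS9 had 35.5 CPM in astrocytes and 21.3 CPM in excitatory neurons. RPS29, a small zinc-finger protein of the small subunit, had 30.7 CPM in astrocytes and 15.5 CPM in excitatory neurons. RPS2 had 52.6 and 17.0 CPM in these classes and RPL15 39.0 and 16.1 CPM. RPS4Y1, a Y-linked copy of RPS4X, lay between 19.3 and 43.0 CPM in all classes, and its reads may be split with RPS4X (2.00 CPM) and RPS4Y2 (6.41 CPM), which are near-identical.

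The 5 held-out genes outside all lists whose log2 level over the 10 classes was most like the summed members were ZNF823 (Pearson r 0.95), the row whose Ensembl identifier the reference pairs with RAC1 (0.94), TPR (0.94), C1D (0.93) and SPG11 (0.93), out of 4440 genes with at least 200 UMIs. The classes share libraries and a depth gradient. In the shallow cluster, which was not among the 10 classes, TPR had 51.9 CPM and 47.5 CPM in excitatory neurons, and ZNF823 9.16 and 5.82 CPM.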

How the data were processed

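Gene expression was measured in nuclei of frozen rhesus macaque amygdala with droplet-based 3′ sequencing. The table as deposited by the authors holds UMI counts, whole numbers per gene row and nucleus. Per the submitters' processing notes, fastp and Cell Ranger 3.0.0 were used and GRCh38 is named. Rows carry macaque Ensembl identifiers, so the build behind the counts is not settled by the sources used here, nor is whether intronic reads were counted. No mitochondrial gene row was used here.

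The pool is 1 sample, with 0 replicates that could be told apart, so no test was run. The members and gene lists were chosen with earlier results of these data known. Counts were handled in Python 3.11.15 with numpy 2.4.6 and scipy 1.17.1. Scrublet, run in scanpy 1.11.5 per barcode set, marked 0.8% doublets per 1000 nuclei, and these were left out. All marker genes, and a part of the other genes chosen by a hash of their names, made up the 9786 genes used for clustering. The other 9922 gene rows were held out and served as background. They included the members, their Ensembl-identified rows and the compared gene lists apart from markers. The 2000 most variable of the clustering genes, reduced to 30 components with 15 neighbours per nucleus, gave 23 clusters by the Leiden method at resolution 0.5.

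Clusters were called inhibitory above 300 CPM of GAD1 plus GAD2, and excitatory above 75 CPM of SLC17A7 and 600 CPM of RBFOX3. Other names needed a log2 marker ratio above 2 with a lead of 1 (0.2 for subclusters), after adding 5 CPM, and under 200 CPM of RBFOX3. These limits were set after seeing the data. Clusters with a median doublet score above 0.06, or a median depth under the pool's divided by 3 with none of their markers in the 10 leading genes, stayed unnamed. A gene was measured at 50 UMIs on 1 side and 10 expected on each, or at 10 CPM in excitatory neurons for the shallow cluster. It was called at 2-fold. Named genes were those called, the 5 at either end of a comparison, and the 10 members with the most UMIs; a few others were named after their values were seen, and some genes the rule would name are not reported here. Shares have Clopper-Pearson intervals, levels Poisson intervals and ratios exact conditional intervals, at 95%. The 2-fold call between a pair of classes was tested on simulated Poisson counts, for excitatory over inhibitory neurons and for oligodendrocytes over precursors. Clustering, naming, thinning and the comparisons with the mean of the other classes were not simulated. Alternatives covered the member list, doublets, clustering, thinning to 1000 UMIs, weighting of nuclei, scaling, level minimum and single barcode sets.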

Additional observations from a re-analysis of the deposited data

Results flagged for a closer look

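A signal outside the 64 genes was found in 18 rows that carry only a macaque Ensembl identifier, which the reference pairs with a ribosomal protein symbol. These rows held 37126 UMIs over all nuclei, or 245 CPM in the nuclei kept, beside 655 CPM for the 64 genes. The largest, paired with RPL5, had 6778 UMIs and 49.6 CPM in the nuclei kept, more than any member. A row paired with RPL37A had 6641 UMIs and 48.6 CPM, against 1.78 CPM for the row named RPL37A. In the shallow cluster and in excitatory neurons it had 73.3 and 46.2 CPM, while the row named RPL37A had 30.5 and 1.36 CPM. How the counting divided reads between such rows was not tested.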

How the results depend on the processing

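Over 39 results, 498 alternative values were computed. Of those for the main comparisons, 71 stayed within the main interval or, for the count of called genes, within 1.5 times it, 23 moved and 1 reversed; of the others 314 stayed and 89 moved. The pool level of 655 CPM was 900.3 with the Ensembl-identified rows, 607 with structural proteins only, 609 without RPL22, 740.3 thinned to 1000 UMIs, 779 as a mean over nuclei, 641 without the cluster highest in PROX1, 621 without RPS26 and 649 without nuclei under 1000 UMIs. The excitatory over inhibitory ratio of 0.970 reversed to 1.02 when thinned, and was 0.945 without RPL22, 0.993 as a mean over nuclei and 0.901 without the PROX1 cluster. Oligodendrocytes over precursors, 1.38, gave 1.21 with the Ensembl-identified rows and 1.09 without RPS26. Glial and vascular nuclei over neurons, 1.43, gave 1.396 with those rows, 1.48 without RPL22, 1.396 thinned, 1.502 without the PROX1 cluster and 1.40 without RPS26. The excitatory depth ratio of 1.30 was 1.23 thinned and 1.12 without the PROX1 cluster. The astrocyte depth ratio of 1.23 stayed within its interval under each alternative run. Called genes numbered 29, and 56 with no level minimum. The cause of these moves was not tested. Leaving out 1 barcode set at a time gave 650.6 to 663 CPM, ratios of 0.961 to 0.980, 1.31 to 1.44, 1.42 to 1.44, 1.28 to 1.31 and 1.18 to 1.27, and 26 to 30 called genes. Leaving out RPS26, shallow nuclei or the cluster led by ST18 was chosen after seeing the data. No paired analysis was possible because the nuclei cannot be assigned to the labelled samples. Intervals cover counting error only; classes under 200 nuclei allow few genes to be read one by one.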

Other observations

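Excitatory clusters differed among themselves more than excitatory and inhibitory neurons did as wholes. The cluster highest in PROX1 had 703 CPM of ribosomal protein UMIs (694 to 712), while clusters led by other genes had, for example, 586 (NECTIN3-led), 599.5 (ST18-led), 551 (SLC26A7-led), 524 (ABCA13-led) and 508 CPM (NDST4-led). Every barcode set of the PROX1 cluster, at 678 to 722 CPM, lay above every set of the other excitatory clusters. It was also the shallowest of them, at a median of 5839 UMIs against 9174 to 12462 UMIs in the others. These clusters were not compared at matched depth, so cluster and depth cannot be told apart. Inhibitory clusters ran from 592 CPM (CUX2-led) to 666 CPM in a cluster whose second gene was PDE1C. A further unnamed cluster of 237 nuclei, led by SEMA3C and TUBA1C, had 1123 CPM at a median of 1384 UMIs.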
